A study of Mus musculus with 9 samples.

Results

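The 41 genes described here encode the machinery that burns fatty acids in the liver, namely mitochondrial and peroxisomal beta-oxidation, omega-oxidation and ketone body metabolism, together with targets of the nuclear receptor PPARα. They were chosen by gene symbol from this pathway, 41 of the 51912 genes listed, and all of them were found. RNA was sequenced from the liver of 9 fasted C57Bl/6 animals with the genotype Apoe-/- Ndst1 f/f Alb-Cre+, 5 given an antisense oligonucleotide (ASO) against apoC-III and 4 given a control ASO, each at 50 mg/kg/week by intraperitoneal injection for 8 weeks. Both groups thus lacked apoE in every tissue, and Alb-Cre, which is active in hepatocytes, removed the heparan sulfate enzyme Ndst1 from these cells only. The age, sex and diet of these animals were not given in the sources used here. Livers are numbered as in the labels, which do not say whether the numbers of the 2 groups are related, and they were treated as unrelated.

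During fasting, adipose tissue releases fatty acids, which the liver takes up, activates to acyl-CoA and moves into mitochondria as carnitine esters. There they are shortened by beta-oxidation, with electrons passed on through the electron transfer flavoprotein, and the acetyl-CoA formed is turned into ketone bodies for other organs. Very long chains are shortened first in peroxisomes, and the Cyp4a enzymes open a side route by hydroxylating the far end of the chain. PPARα senses fatty acids and drives many of these genes, so Cyp4a10, Cyp4a14, Acot1 and Pdk4 are widely used readouts of its activity.

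To show the stretches of DNA next to some of these genes, the RefSeq promoter table (GRCm38.p6) was matched by symbol, which gave 36 promoters for 32 members. No entry was found for Vnn1, Cyp4a31, Acat1, Cyp4a10, Crat, Hsd17b4, Decr1, Cyp4a14 or Acaa2. The 250 bases before the start of 4 genes are printed 5′ to 3′ on the strand of the gene. Hadhb is shown because by the RefSeq starts the same stretch lies between it and its partner subunit Hadha (chr5:30155003-30155252, + strand). Acot1 (chr12:84009252-84009501, + strand) and Acot12 (chr13:91741271-91741520, + strand) are shown as the thioesterases with the widest and the narrowest spread between livers. Cyp4a32 (chr4:115600688-115600937, + strand) is the omega-oxidation gene with an entry. Capitals mark the hexamer AGGTCA, to which nuclear receptors bind, and the TATA box TATAAA, on either strand, so that they also appear as TGACCT and TTTATA.
Hadhb: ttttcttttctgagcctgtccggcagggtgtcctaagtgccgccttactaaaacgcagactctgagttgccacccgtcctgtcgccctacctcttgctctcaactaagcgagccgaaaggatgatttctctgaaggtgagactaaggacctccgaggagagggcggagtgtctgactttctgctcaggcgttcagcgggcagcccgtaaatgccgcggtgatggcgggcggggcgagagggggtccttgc
Acot1: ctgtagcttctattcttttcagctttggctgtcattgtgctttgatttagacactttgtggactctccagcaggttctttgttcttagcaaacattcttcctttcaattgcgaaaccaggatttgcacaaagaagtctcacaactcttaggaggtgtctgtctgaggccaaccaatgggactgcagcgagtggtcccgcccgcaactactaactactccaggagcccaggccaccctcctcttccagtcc
Acot12: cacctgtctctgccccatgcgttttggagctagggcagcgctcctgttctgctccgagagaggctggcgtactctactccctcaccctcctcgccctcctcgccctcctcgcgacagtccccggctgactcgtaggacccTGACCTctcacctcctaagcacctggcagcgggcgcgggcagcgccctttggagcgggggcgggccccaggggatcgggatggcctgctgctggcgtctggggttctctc
Cyp4a32: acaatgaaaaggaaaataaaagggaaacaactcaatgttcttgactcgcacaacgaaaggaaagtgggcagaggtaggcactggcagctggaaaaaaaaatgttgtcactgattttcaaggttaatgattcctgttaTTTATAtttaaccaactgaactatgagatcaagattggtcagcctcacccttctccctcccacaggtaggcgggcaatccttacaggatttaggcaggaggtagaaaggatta

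AGGTCA stood before the start in 6 of the 32 members with a promoter, and in 14.02% of all 32851 promoters in the table. TATAAA stood there in 3 members, Cyp4a32, Acot4 and Fgf21, and in 12.4% of all promoters. PPARα binds, together with RXR, to a direct repeat of AGGTCA spaced by a single base. That repeat was in 0 of the members' 36 promoters and in 0.0396% of all promoters over the full window, which also takes in 50 bases after the start. With the fourth base of each hexamer left free it was in 0 of 36 and 0.381%. Both forms are so rare in all promoters that 0 of 36 does not set the members apart. Repeats with other bases or outside this window were not searched, and members without an entry were not covered. The RefSeq starts of Hadha and Hadhb lay 272 bases apart on opposite strands, so by RefSeq 228 of the 250 bases printed for Hadhb also lie before the start of Hadha. In the GENCODE M21 annotation Hadha reaches to position 30155162, inside the printed stretch. The printed promoters also differ in base composition, as Acot12 held 18 CpG pairs and Hadhb 17, against 4 in Acot1 and 3 in Cyp4a32, with a median of 6.0 over all promoters.

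The deposited unit was TPM, transcripts per 1000000 with each gene's reads divided by its length, so levels can be compared between genes. Nuclear protein-coding genes made up between 1.94% and 8.64% of the TPM of a liver, while 7SL RNA (Rn7s1 and Rn7s2) took 64.0% to 83.6% and mitochondrial ribosomal RNA 8.43% to 27.7%. Values below are therefore protein-coding TPM rescaled to 1000000 per liver and divided by a median-of-ratios factor, called rescaled TPM. These factors were 0.939 to 1.42 with apoC-III ASO and 0.919 to 1.15 in control livers 1 to 3, while control liver 4 had 0.491 and the lowest protein-coding share. The ASO target checked the labels, since Apoc3 was at 456 ± 113 rescaled TPM (SD, n = 5) against 3620 ± 499 (SD, n = 4), 87.4% lower and with no overlap between the groups. Hepatocyte markers were high in every liver, with 8 of 8 listed genes above the minimum level and summed values of 27830 to 63508 (treated) and 43325 to 50761 (control). Adipocyte markers summed to at most 1.6 and muscle markers to at most 1.54 in any liver. The read depth of the livers is unknown, because TPM does not keep it.

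In rescaled TPM the values of apoC-III ASO and control ASO livers overlapped for each of these genes, and none was called different. Fgf21 stayed under a mean of 1 rescaled TPM and was not tested. By limma-trend 0 of the other 40 were called, which required a change over 1.5-fold with an adjusted p below 0.05, against 0.0167% of all 11991 genes tested, which were Apoc3 and Anpep. An unadjusted p under 0.05 was reached by 0 members, against 5.55% of all genes, and the groups overlapped for all 40 members, whereas they did not overlap for 1.83% of all genes. The lowest unadjusted p among members was 0.0855, for Cyp4a10, and adjusted p ranged from 0.894 to 0.998. Every 95% interval of the log2 fold change included 0. It lay within 2-fold in either direction for 22 members and within 1.5-fold for 3 of them, and for the rest a change beyond 2-fold in at least 1 direction was not set aside by these data.

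The direction of the small differences rested on 1 animal. With all 9 livers, 34 of the 40 fitted changes were below 0 and 6 above, with a median log2 fold change of -0.24 against -0.00125 over all genes, of which 49.9% were above 0. Without control liver 4, 19 of 40 were above 0 and the median was -0.04. The split also moved with the scaling. In TPM as deposited 21 of 34 changes were above 0, and 14 of 34 relative to the median of all genes. With protein-coding rescaling but no factors 30 of 40 were above 0, and 9 of 40 relative to that median. Quantile normalization gave 9 of 40.

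**Figure D1:**
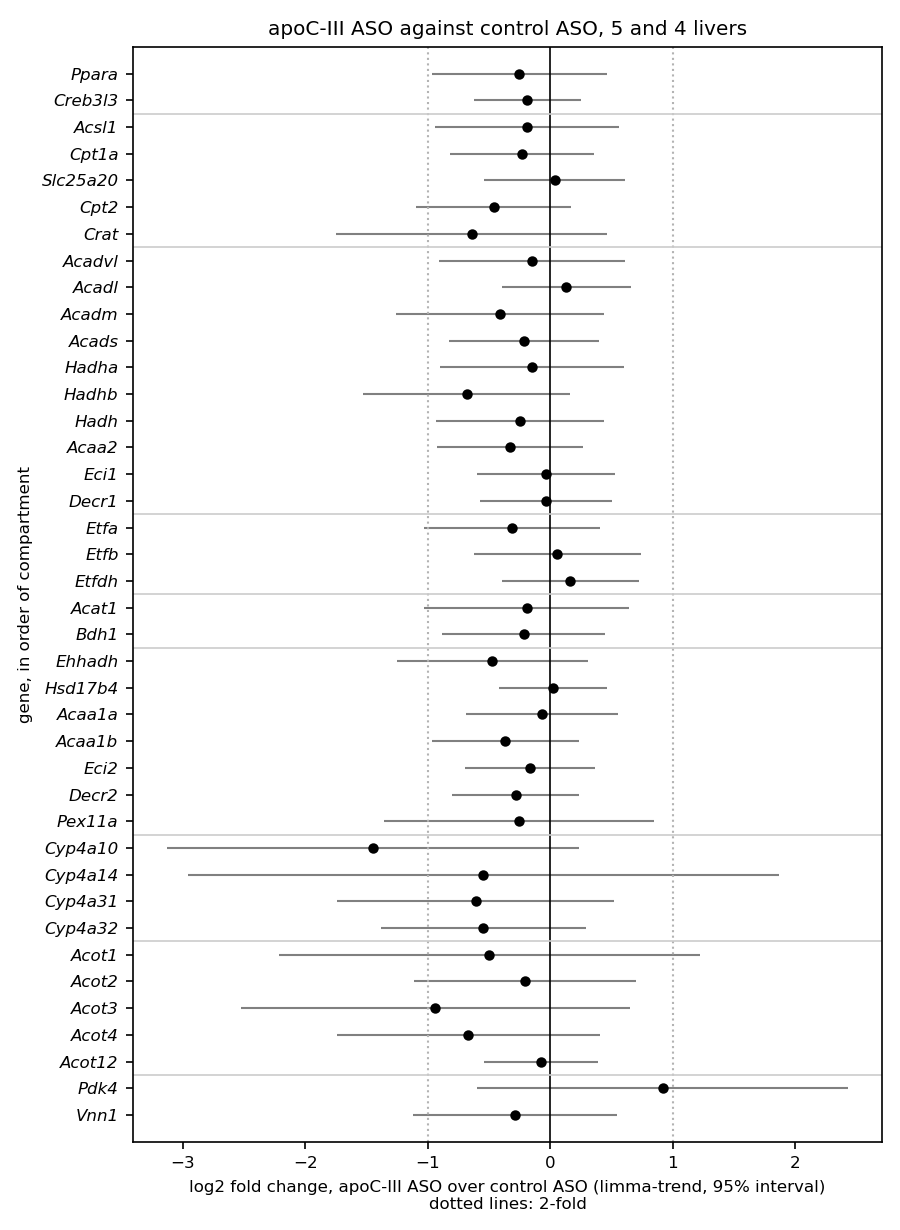
Fitted log2 fold change of apoC-III ASO (n = 5) over control ASO (n = 4) livers for the 40 members tested (x axis; points, limma-trend estimate; bars, 95% interval), with genes in order of compartment on the y axis. All 40 bars cross 0, and the bars of Cyp4a14, Acot1, Cyp4a10, Acot3 and Pdk4 are the widest.

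The 2 regulators differed little. Ppara, which encodes PPARα itself, was at 88.0, 131, 133, 247 and 246 rescaled TPM in apoC-III ASO livers 1 to 5 and at 135, 178, 208 and 244 in control livers 1 to 4. The groups overlapped almost fully, with the lowest and the highest value both in treated animals. By limma-trend the log2 fold change came to -0.25 ± 0.33 (SE; adjusted p = 0.956). Creb3l3, a liver transcription factor that works with PPARα in fasting, varied less than nearly every other gene. Its values ran from 121 to 167 in treated and from 126.3 to 182 in control livers, and its spread within groups, a log2 SD of 0.218, was at percentile 5.58 of all genes tested.

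The 5 genes of activation and the carnitine shuttle had a median log2 fold change of -0.23. Acsl1, the main acyl-CoA synthetase of liver, had the highest level of all 41 genes. It was at 562, 696, 496, 1155 and 1041 rescaled TPM in treated livers and 745, 858, 556 and 1494 in controls, a log2 fold change of -0.19 ± 0.34 (SE), which became 0.08 without control liver 4. Cpt1a, the rate-controlling carnitine palmitoyltransferase of the outer mitochondrial membrane, was at 67.5, 51.0, 37.9, 91.3 and 85.3 in treated livers. In controls it was at 74.3, 63.0, 76.9 and 85.8, so the control range lay inside the treated range. The estimate of -0.23 ± 0.27 (SE; adjusted p = 0.948) had a 95% interval from -0.82 to 0.36. Slc25a20, the carnitine carrier of the inner membrane, had a change of 0.03 and Cpt2, which turns the carnitine ester back into acyl-CoA, of -0.46. Crat, which moves short acyl groups between carnitine and CoA, had the largest estimate of these 5, -0.64 ± 0.51 (SE). That estimate came from control livers 1 and 4, at 39.5 and 98.2 against 16.7 and 10.6 in the other two controls, while the treated livers sat close together at 18.6, 22.7, 14.9, 16.3 and 20.1. Without control liver 4 the Crat estimate was -0.07, and without control liver 3 it was -1.10, at an unadjusted p under 0.05. In the latter fit 5.72% of all genes were under 0.05.

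Of the 10 genes of mitochondrial beta-oxidation, 9 had estimates below 0 and 1 above, with a median of -0.18, and without control liver 4 the median was 0.05. The acyl-CoA dehydrogenases, which take the first step for chains of falling length, had changes of -0.15 (Acadvl), 0.13 (Acadl), -0.41 (Acadm) and -0.22 (Acads). Hadha and Hadhb encode the alpha and beta subunits of the trifunctional protein, which carries out the later steps for long chains. Hadhb was at 106, 82.8, 87.2, 273 and 148 rescaled TPM in treated livers and 149.6, 133, 247 and 337 in controls. Apart from treated livers 4 and 5, the treated values were below every control value, and treated liver 4 was above 3 of the 4 controls. The log2 fold change came to -0.68 ± 0.39 (SE; adjusted p = 0.899), the largest of this compartment, against -0.15 ± 0.34 for Hadha. The ratio of Hadhb to Hadha within a liver, which scaling by 1 factor per liver does not alter, was 0.783, 0.821, 0.715, 1.07 and 0.754 in treated livers and 1.19, 0.875, 1.83 and 1.049 in controls. These ranges overlapped through treated liver 4. Of the 31-base words of the Hadhb transcripts, 19.5% also occur, on either strand, in the gene model Gm13910, so reads from these may not have been assigned to Hadhb alone. Acaa2, the last enzyme of the cycle, had the highest level here, at 265, 176, 167, 360.2 and 281 in treated livers against 280.4, 284, 252 and 411 in controls (log2 fold change -0.33 ± 0.27, SE). Hadh, the hydroxyacyl-CoA dehydrogenase for shorter chains, had a change of -0.25. The auxiliary enzymes for unsaturated chains, Eci1 and Decr1, had changes of -0.03 and -0.04.

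Electron transfer, the step that hands electrons from the dehydrogenases to the respiratory chain, had 2 estimates above 0 and 1 below. Etfb, the beta subunit of the flavoprotein, was at 544, 335, 354, 638 and 812 rescaled TPM in treated livers and 473, 376, 428 and 740.5 in controls. Its log2 fold change was 0.06 ± 0.31 (SE), and leaving out treated liver 5 gave -0.11. Of its 31-base words, 47.4% also occur, on either strand, in the gene model Gm45233, so its level could depend on how reads were divided. The alpha subunit Etfa was at 73.8, 29.9, 49.3, 89.1 and 80.0 in treated livers and 59.1, 88.8, 59.5 and 101 in controls, with a change of -0.31 ± 0.33 (SE). Treated liver 2 was the lowest of the 9 for both subunits. Etfdh, the membrane dehydrogenase that reoxidizes the flavoprotein, had a change of 0.16.

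The 2 genes of ketone body metabolism had estimates near one another. Bdh1, which makes 3-hydroxybutyrate from acetoacetate, was at 53.6, 57.3, 41.6, 117 and 98.8 rescaled TPM in treated livers and at 88.9, 64.7, 86.2 and 81.2 in controls. The controls fell inside the treated range, where livers 1 to 3 were low and livers 4 and 5 high. The estimate was -0.22 ± 0.30 (SE; adjusted p = 0.965). Acat1, the mitochondrial acetoacetyl-CoA thiolase, had a change of -0.19, with its highest value, 155, in control liver 4 and 104 in treated liver 4.

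The 7 peroxisomal genes had a median log2 fold change of -0.26, and of -0.06 without control liver 4. Acaa1b, one of the peroxisomal thiolases, had the highest level, at 363, 327, 312, 561 and 461 rescaled TPM in treated livers and 597, 377, 398 and 752 in controls. The estimate was -0.37 ± 0.27 (SE; adjusted p = 0.908). It shares 40.0% of its 31-base words with its neighbour Acaa1a, which had a change of -0.07, so part of the reads could have been divided between them. Ehhadh, the peroxisomal bifunctional enzyme and a classic PPARα target, was at 45.02, 25.9, 27.4, 52.1 and 49.2 in treated livers. In controls it was at 41.3, 43.5, 38.8 and 118, so control liver 4 alone lay outside the treated range. The change was -0.48 ± 0.36 (SE), and -0.10 without that liver. Hsd17b4, the other multifunctional enzyme, was among the steadiest genes, with values of 195 to 308 in treated and 211 to 248 in control livers and a change of 0.02. The auxiliary enzymes Eci2 and Decr2 had changes of -0.17 and -0.28. Pex11a, which promotes the division of peroxisomes, had a change of -0.26 with a wide spread, from 15.3 to 62.6 in treated and from 20.6 to 89.9 in control livers.

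The 4 genes of omega-oxidation lie side by side in the Cyp4a cluster of chromosome 4 (GRCm38, GENCODE M21) and had the widest spread of all compartments. Their median log2 fold change was -0.58, and -0.12 without control liver 4. Cyp4a10 (chr4:115518264-115533649, + strand) was at 113, 55.5, 28.4, 71.7 and 217 rescaled TPM in treated livers and at 53.7, 134, 265 and 1075 in controls. The 9 values covered 37.8-fold, and control liver 1 was below 4 of the 5 treated livers. The log2 fold change of -1.45 ± 0.77 (SE) was the largest of the 40, yet its 95% interval ran from -3.13 to 0.24. Without control liver 4 the estimate was -0.67, and without control liver 1 it was -2.10 at an unadjusted p under 0.05. In the latter fit 5.69% of all genes were under 0.05. Cyp4a14 (chr4:115486200-115496142, - strand) was at 256, 31.03, 19.1, 48.1 and 193 in treated livers and 7.31, 122, 170.2 and 594 in controls, an 81.2-fold range with both ends in control animals. The change was -0.55 ± 1.1 (SE), and 0.31 without control liver 4. In treated liver 1 there was 2.26 times as much Cyp4a14 as Cyp4a10, against 0.136 times in control liver 1 and 0.552 to 0.906 times in the other 7 livers. Cyp4a31 and Cyp4a32 had changes of -0.61 and -0.55. Cyp4a32 shares 49.2% of its 31-base words with Cyp4a10 and 37.9% with Cyp4a31, whereas Cyp4a14 shares 0% with Cyp4a10, so among these genes the value of Cyp4a14 depended least on how reads were divided.

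**Figure D2:**
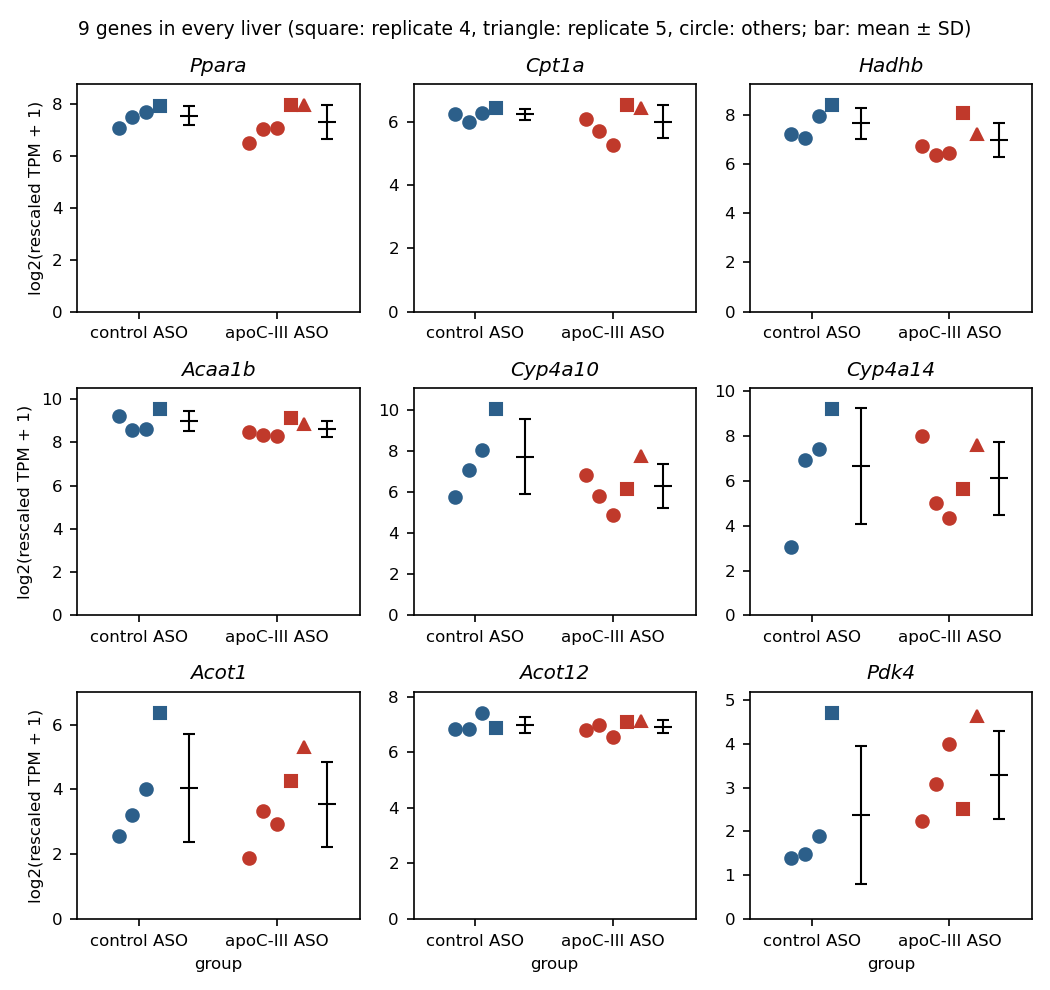
Level of 9 members in each control ASO (blue, n = 4) and apoC-III ASO (red, n = 5) liver as log2(rescaled TPM + 1) on the y axis, with the mean and SD of each group as black bars. Squares mark replicate 4 of each group and triangles replicate 5, and control replicate 4 is the highest control in 8 of the 9 panels, Acot12 being the other.

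The acyl-CoA thioesterases release free fatty acid from acyl-CoA. Acot1 to Acot4 lie in a row on chromosome 12 (chr12:83987861-84060402 from the start of Acot2 to the end of Acot3), and Acot12, a cytosolic acetyl-CoA hydrolase, lies on chromosome 13. The median estimate of the 5 genes was -0.50, and -0.04 without control liver 4. Acot3 had the largest estimate, -0.94 ± 0.73 (SE; adjusted p = 0.912). It was at 1.15, 0.994, 0, 3.19 and 2.23 rescaled TPM in treated livers and at 0.907, 1.28, 1.81 and 27.5 in controls, so that control liver 4 alone exceeded the treated range, and without it the estimate was -0.04. Acot1 ran from 2.68 to 38.8 in treated and from 4.92 to 81.9 in control livers, with a log2 fold change of -0.50 ± 0.79 (SE). Acot2 and Acot4 had changes of -0.21 and -0.67. Acot1 and Acot2 share sequence, 16.7% of the 31-base words of Acot1 and 29.9% of those of Acot2. Acot12 had the highest level and the narrowest spread of the 5, at 111, 125, 93.2, 135 and 139.6 in treated livers and 112, 114, 170.4 and 116 in controls. Its log2 fold change was -0.08 ± 0.21 (SE), with a 95% interval from -0.54 to 0.39.

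Among the other PPARα targets, Pdk4, the kinase that shuts off pyruvate dehydrogenase in fasting, had the highest estimate of the 40 genes. It was at 3.71, 7.48, 14.9, 4.71 and 23.8 rescaled TPM in treated livers and at 1.64, 1.80, 2.75 and 25.1 in controls. In rescaled TPM all treated livers were above control livers 1 to 3 and below control liver 4. The estimate was 0.92 ± 0.69 (SE; adjusted p = 0.911), and without control liver 4 it was 1.72 ± 0.50 (SE; adjusted p = 0.801) at an unadjusted p of 0.00622. In the latter fit 5.36% of all genes had an unadjusted p under 0.05. Fgf21, the hormone that the fasted liver secretes under PPARα, was barely above zero, at 0.368, 1.76, 1.26, 0.574 and 0 in treated and at 0.653, 0.326, 0.303 and 3.03 in control livers. At these levels no difference could be detected. In the 3 alternative fits that took it in, its log2 fold change was -0.13, 0.06 and -0.30, with adjusted p from 0.960 to 0.994. Vnn1, a pantetheinase, ran from 5.72 to 12.0 in treated and from 4.16 to 20.3 in control livers, with a change of -0.29 ± 0.38 (SE).

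**Figure D3:**
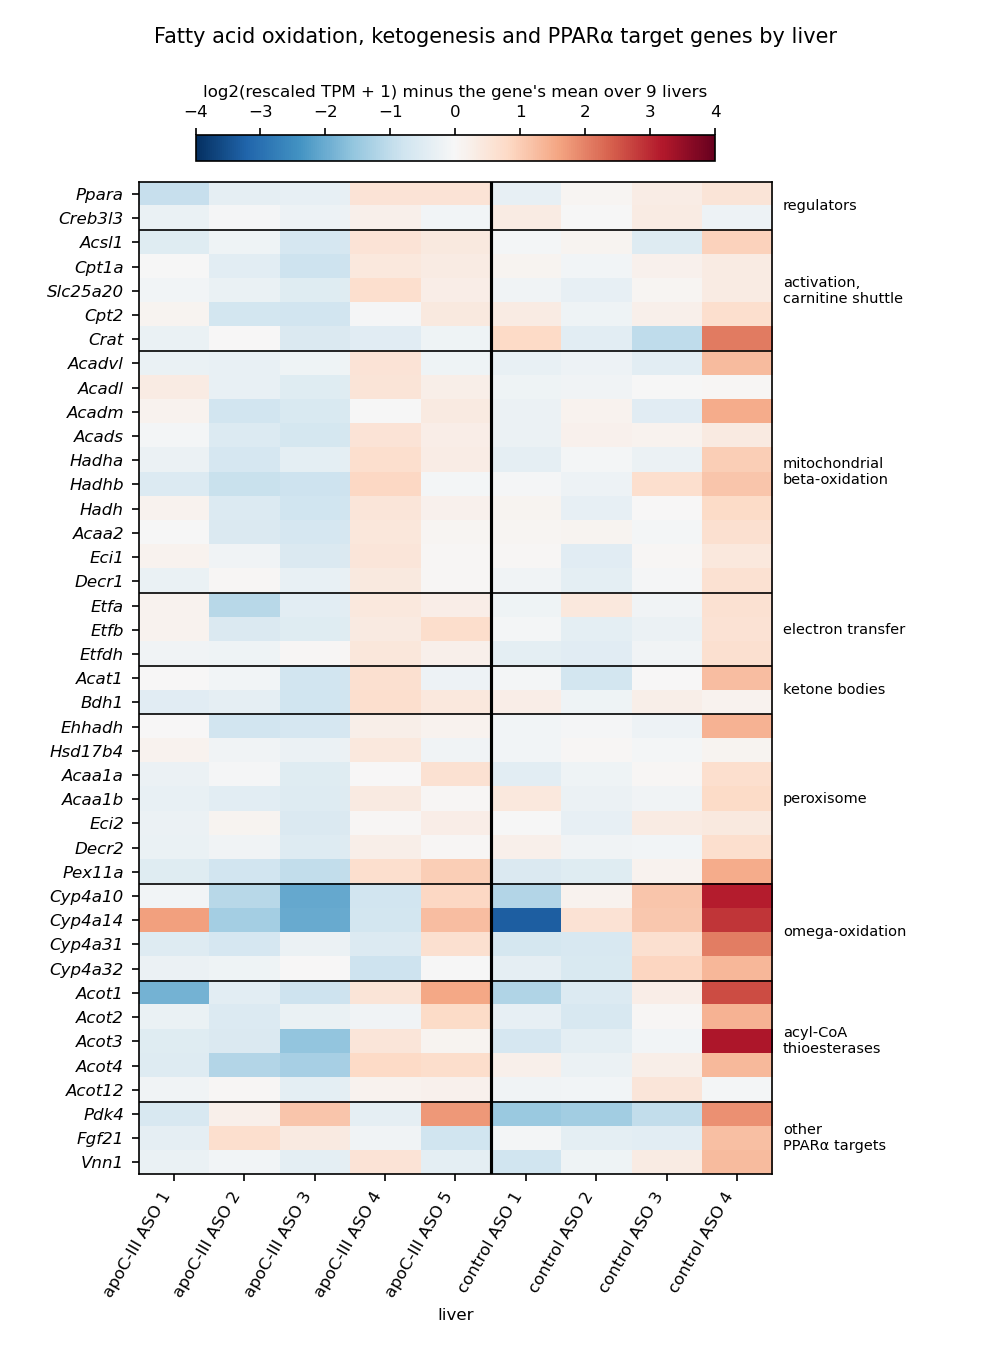
Colour map of the 41 members (rows, grouped by compartment) in the 9 livers (columns), each cell giving log2(rescaled TPM + 1) minus the gene's mean over all livers, with blue below and red above that mean. Control liver 4 is red in nearly all rows, treated livers 4 and 5 are pale red in most, and treated livers 2 and 3 are pale blue in most.

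The members tended to be high or low in the same livers. Control liver 4 had the highest control value for 37 of the 40 members, 92.5%, against 34.7% of all genes tested. Among treated animals, liver 4 was highest for 25 members and liver 5 for 12, together 92.5% against 43.9% of all genes, and liver 3 was lowest for 25, or 62.5%, against 17.2%. The median deviation of the members from their mean over the 9 livers was 0.76 on the log2 scale in control liver 4. It was 0.42 and 0.27 in treated livers 4 and 5 and between -0.54 and 0.04 in the other 6. With other scalings that balance the livers, control liver 4 was the highest control for 31 of 34 members (38.6% of all genes) with factors from all listed genes and for 31 of 40 (32.4%) with quantile normalization. Treated liver 4 or 5 was the highest for 31 of 34 (47.9%) and 34 of 40 (43.0%). Where the livers are not balanced, most genes have their lowest control value in control liver 4, and it was the highest control for 0 of 34 members in TPM as deposited (0.871% of all genes) and for 15 of 40 without factors (7.15%). Treated liver 4 or 5 was then the highest for 13 of 34 (19.3% of all genes) and 24 of 40 (20.7%).

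Other measured features also differed between animals. Erythroid markers, 3 of 3 above the minimum level, summed to 1859 rescaled TPM in control liver 4 and 795 in treated liver 4, against 43.0 to 172 in the other livers. The 15 clock genes do not all peak at the same time of day, so their sum does not give a time. It was 1053 and 1077 in treated livers 4 and 5 and 200, 388 and 236 in treated livers 1 to 3. In control livers the clock genes summed to 718, 924, 720.1 and 399. Stellate cell markers, 4 of 4, summed to 231 in control liver 4 and to between 98.6 and 158 elsewhere. Kupffer cell and leukocyte markers overlapped between the groups, at 67.5 to 114 and 69.7 to 119.5, as did endothelial markers, at 75.9 to 116 and 64.6 to 114. The part of each of these in the member values was not tested. In whole liver, fewer cells of a type and less RNA per cell cannot be told apart.

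The spread between animals of a group was not even across the pathway. The median within-group SD was 0.542 on the log2 scale for the 40 members and 0.439 for all genes tested, and 25 members were above the latter. It was 1.19 for omega-oxidation, 0.875 for the thioesterases and 0.961 for the other PPARα targets, against 0.471 for mitochondrial beta-oxidation and 0.413 for the peroxisomal genes. Cyp4a14 was at percentile 99.6 of all genes, Acot1 at 98.6, Cyp4a10 at 98.5, Acot3 at 98.1 and Pdk4 at 97.8. At the other end stood Creb3l3, Hsd17b4 and Acot12, the last at 11.7. Of the 31 members tested that have a promoter in the table, the 4 with at most 4 CpG pairs before every listed start, Acot1, Acot3, Acaa1b and Cyp4a32, had a median SD of 1.0, within a range of 0.413 to 1.47, against 0.499 for the other 27. Acsl1 and Creb3l3 have a second start with as few CpG pairs, and with these counted the 6 genes had a median of 0.613 and a range of 0.218 to 1.47. Over all 9295 genes tested with a promoter, the medians by the first count were 0.507 and 0.429. These are descriptions across genes, which share livers and base composition. The limit of 4 CpG pairs was not planned, and Acot1, printed above for its wide spread, lies at that limit.

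**Figure D4:**
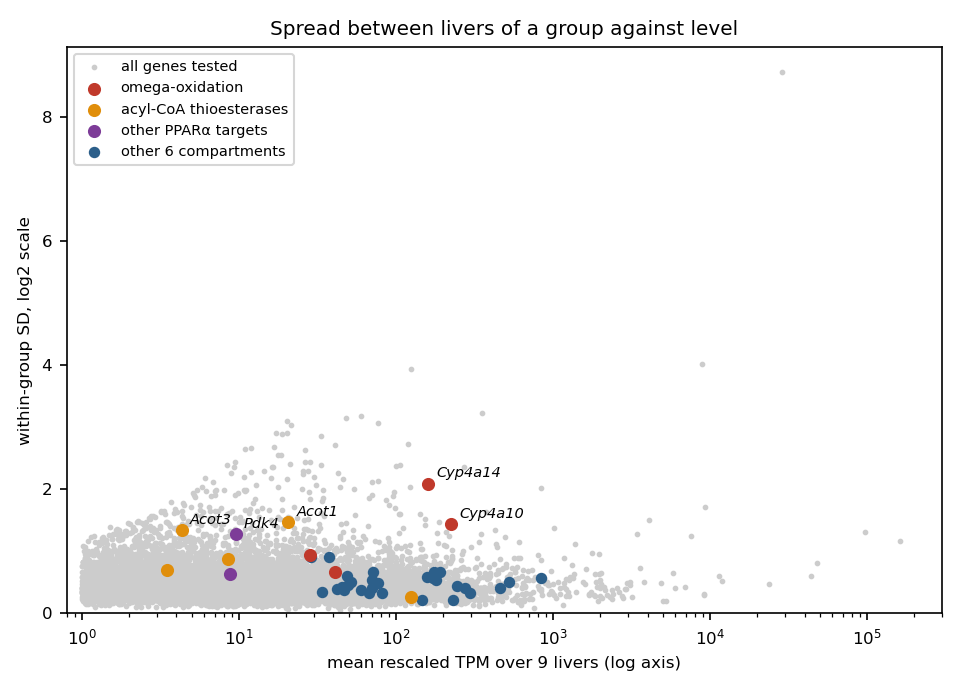
Within-group SD on the log2 scale (y axis) against the mean rescaled TPM over 9 livers (x axis, log scale) for the 11991 genes tested (grey) and the 40 members (coloured by compartment). Cyp4a14, Cyp4a10, Acot1, Acot3 and Pdk4 lie far above most genes of their level, while most enzymes of the other 6 compartments lie within the grey band.

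Of 72 further genes of fatty acid transport, oxidation and PPARα signalling, 71 were tested, 24 had estimates above 0 and 47 below, 0 were called by limma-trend and the median log2 fold change was -0.12. An unadjusted p under 0.05 was reached by 5, or 7.04%, against 5.55% of all genes, 2 higher and 3 lower. Without control liver 4 it was reached by 1 of 70, against 5.36% of all genes. Acaca, which encodes an acetyl-CoA carboxylase, was at 46.3, 52.0, 42.6, 64.8 and 40.4 rescaled TPM in treated livers and at 93.9, 174, 132 and 39.7 in controls (log2 fold change -0.98 ± 0.37, SE; adjusted p = 0.867). It was lower in each treated liver than in control livers 1 to 3, and control liver 4 was the lowest of the 9. The fatty aldehyde dehydrogenase gene Aldh3a2 (-0.89) and Cyp4a12b (-0.64) had estimates below 0. In control liver 4 they were at 538 and 95.1, against 154 to 185 and 49.4 to 66.9 in the other controls. Acox2, the branched-chain acyl-CoA oxidase, had an estimate of 0.51, with 219, 276, 241, 163 and 233 in treated and 171, 161, 161 and 137 in control livers. Rxrb, a partner receptor of PPARα, had an estimate of 0.64, with 14.1 in control liver 4 and 21.8 to 29.0 in the other controls. Each of these had an adjusted p of at least 0.867.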

How the data were processed

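Liver RNA of 9 mice was sequenced as single-end reads of ribo-depleted stranded libraries. The values the authors deposited are TPM per gene and liver (kallisto 0.43.1 and GRCm38 per the submitters' processing notes, whereas the methods describe STAR, featureCounts and DESeq2). TPM keeps no read depth, so no count test, counting interval or floor was used, and the number of animals limits the precision. Groups came from the labels, and each animal counted as 1 replicate.

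Of 51912 genes, 51719 were matched to GENCODE M21, and the TPM of the 21857 nuclear protein-coding genes were rescaled as described above. limma 3.58.1 (R 4.3.3) with a trend was fitted to log2(value + 1) over the 11991 genes with a mean of at least 1, with Benjamini-Hochberg adjustment over all of them. Fold changes are on that scale, which understates changes of low genes. The fit was tested on simulated data. Figures and counts used Python 3.11.15. Alternatives were other scalings, pseudocounts, filters, variance models, a replicate block and leaving out each liver.

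The members and lists were chosen with earlier results of these data known. Described in every liver were, per compartment, the gene with the largest change and that with the highest level, plus Ppara, Cpt1a, Cyp4a10, Cyp4a14, Fgf21 and Pdk4, any called member and any at an unadjusted p under 0.05. Hadha, Acot1 and Creb3l3 were described more fully after their values were seen. In place of protein identity, which was not computed here, shared 31-base words of GENCODE M21 transcripts were counted. Matches to gene models were counted on either strand, although the libraries were stranded. Apoc3 differed by -3.01 ± 0.23 on the log2 scale (SE; adjusted p = 3.88e-04), with an exact two-sided permutation p of 0.0159, the smallest that 5 against 4 livers allow. Apoe was at 36.5 ± 11.1 and 51.4 ± 19.7 (SD) and Ndst1 at 10.3 ± 1.46 and 8.62 ± 2.76 rescaled TPM in treated and control livers, and such levels do not check the deletions, since altered transcript can remain.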

Additional observations from a re-analysis of the deposited data

Results flagged for a closer look

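In 12 of 82 groups of values, 2 for each of the 41 genes, the highest liver stood apart from the others of its group by Dixon's gap test, where chance flags about 1 group in 20. That is 14.6% of the groups, against 8.78% over all genes tested. Control liver 4 made up 7 of these, and among all genes tested 611 of the 1156 groups of controls so found. It was at 356 rescaled TPM for Acadvl, the dehydrogenase of very long chains, with the next control at 127, and at 321 for Hadha with the next at 152. For Ehhadh it was at 118 with the next at 43.5. For Acot1 it was at 81.9 with the next at 15.2, and for Acot3 at 27.5 with the next at 1.81. For Pdk4 it was at 25.1 with the next at 2.75, and for Fgf21 at 3.03 with the next at 0.653. Control liver 3 stood apart for Acot12, at 170.4 with the next control at 116. Among treated animals, liver 4 stood apart for Acadvl, at 214 with the next at 131, and for Vnn1, at 12.0 with the next at 7.25. Treated liver 5 stood apart for Cyp4a31, at 35.2 with the next at 18.8, and for Acot2, at 5.87 with the next at 2.67. The genes share the same livers, so the 12 values are not independent of each other. All these flags are in rescaled TPM, and other scalings were not searched for them. In TPM as deposited control liver 4 was the lowest control for 96.3% of the genes tested there. It was the lowest for Acadvl (3.39), Hadha (3.06) and Ehhadh (1.12), lay between other controls for Acot1 and Fgf21, and was the highest for Acot3 and Pdk4.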

How the results depend on the processing

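Over 21 alternatives no member and no other gene of the pathway was called. Of 660 recomputed values, 642 kept their direction and side of the threshold or moved by less than the spread between animals. That count includes call counts of 0, and fits without a trend or with robust variances, which leave each fold change as it was. It also includes medians that changed sign within the spread, such as -0.18 to 0.05 for mitochondrial beta-oxidation without control liver 4. A pair of scalings moved the median of all genes, by 0.11 (TPM as deposited) and 0.41 (no factors), and log2 changes under them are given relative to it. Apoc3 was -2.73 in TPM as deposited (adjusted p = 0.104). Acsl1 turned to 0.031 in TPM as deposited and 0.044 under quantile normalization, Acot12 to 0.030 and 0.022, and Etfb to -0.11 with the replicate block. Leaving out each liver in turn gave -0.40 to 0.080 for Acsl1, -0.11 to 0.26 for Etfb, -1.75 to 0.31 for Cyp4a14 and -0.13 to 0.07 for Acot12, and medians of -0.11 to 0.26 for electron transfer and -0.23 to 0.90 for the other PPARα targets. Control liver 4 was the highest control for 0 of 34 and 15 of 40 members, and treated liver 4 or 5 the highest for 13 and 24, in TPM as deposited and without factors, where most genes have their lowest control value in control liver 4. Leaving out 1 liver brought 1 member (Hadhb, Cyp4a10, Cyp4a32, Crat or Pdk4) under an unadjusted p of 0.05 in 6 of the 9 fits. In those 6 fits 5.36% to 7.04% of all genes were under it. Livers of the same number deviated together only in part (r = 0.067, 0.12, 0.028 and 0.19 for numbers 1 to 4). The highest r of these treated livers with a control of another number was 0.076, 0.17, 0.051 and -0.021. The numbers were not taken as pairs, and whether same-numbered livers shared a batch was not tested. With the replicate block 0 members were called, and the median was -0.33. An unadjusted p under 0.05 was then reached by 5 members (Cpt2, Acot4, Hadhb, Cyp4a10 and Acot1), against 7.78% of all genes. The cause of these shifts was not tested.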
